A study of Mus musculus with 36 samples.

Results

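Gene expression at 24 h was compared between 6 libraries of mouse lung pericyte-like cells exposed to bronchoalveolar lavage fluid (BALF), the fluid washed out of the airspaces, from uninjured lungs, and 6 libraries of cells kept in media only. These are 12 of the 36 libraries of the study, taken by their labelled treatment and time, with 3 female and 3 male libraries on each side. The other 24 libraries are the 6 h exposures and the cells given injured BALF. Uninjured BALF was mixed with an equal volume of DMEM/F12 medium with reduced fetal bovine serum, and in media only the same medium was mixed with sterile PBS, so serum, the ITS supplement and antibiotics were shared by both groups. The cells came from lung digests expanded in flasks, were depleted of cells with CD31 (endothelium), CD45 (leukocytes) or CD326 (epithelium), and were then selected for PDGFRβ, a receptor that lung fibroblasts carry as well as pericytes. Strain, age, the number of mice behind the cells or the fluid and any pooling of the fluid are not given in the sources used here. Libraries of a group are treated as replicates, and since nothing says that they came from separate animals or cultures, p-values measure only the spread between these samples, which may be technical.

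BALF from a healthy lung carries surfactant, a mixture of phospholipids, cholesterol and surfactant proteins, together with plasma proteins and material shed by airway cells. Cells make cholesterol from acetyl-CoA through the mevalonate pathway. The transcription factor SREBP2 is kept in the endoplasmic reticulum membrane by INSIG proteins while sterol is plentiful there and, when sterol falls, moves to the nucleus and raises the enzymes of the pathway. LXR receptors, which bind oxysterols, raise the cholesterol exporter ABCA1, PPAR receptors answer to fatty acids, and NRF2 raises antioxidant and NADPH-making enzymes.

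Total counts of the 12 libraries ran from 19709427 to 35991683. Levels are CPM, a count divided by the scaled size of its library, which compare 1 gene between libraries and not genes of different length with each other. Pdgfrb, which encodes the receptor used for selection, lay at 668, 747 and 862 CPM (lowest, median and highest of 6 libraries) in media and at 488, 643 and 758 CPM in uninjured BALF. Among the 15 pericyte markers Higd1b was at 0 in all 12 libraries, and Abcc9 was below the filter on low counts, while the summed list reached 1736 ± 448 CPM in media (mean ± SD, n = 6) and 1322 ± 210 CPM in uninjured BALF. Summed lung fibroblast markers reached 524 ± 76.8 and 562 ± 77.1 CPM. Gene by gene, 10 of the 12 tested fibroblast markers had estimates below 0, with a median log2 fold change of -0.47, so the sum does not show the direction of most members. In bulk RNA, fewer cells of a type and less RNA per cell cannot be told apart. The difference in the pericyte sum had an exact permutation p of 0.035 (two-sided, treatment permuted within sex, 400 arrangements, smallest possible p 0.005), which became 0.39 after Benjamini-Hochberg adjustment over the sums and shares tested. Female media replicate 1 held the highest pericyte sum, 2618 CPM, and a mitochondrial share of 3.87% of counts, against at most 1.92% in the other 11 libraries. 3 of the 12 libraries, female media replicate 2, male media replicate 3 and male uninjured BALF replicate 3, carry a description number from another number range than the other 9. These 3 had the lowest summed macrophage markers, 13.9 to 15.4 CPM, where those 9 had 38.4 to 98.6 CPM, and the part of this difference in the results was not tested.

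At 24 h, 138 of the 15901 genes tested (0.868%) differed between uninjured BALF and media at an adjusted p under 0.05 (edgeR quasi-likelihood test, all 36 libraries in 1 fit, Benjamini-Hochberg over all genes). 82 genes (0.516%) were higher and 56 (0.352%) were lower, and 41 of the 138 changed at least 2-fold, 26 upward and 15 downward. The 82 and the 26 include Bpifa1 and Scgb1a1, which had 0 counts in media. The median log2 fold change over all genes was -0.004, with 49.02% of estimates above 0, and 1793 genes (11.28%) had an unadjusted p under 0.05. Counts of list members given below are to be read beside these shares. All 138 had the same direction in female and in male libraries. In 60 of them the ranges of the 6 and 6 libraries did not overlap. The test that picked the 138 combines both sexes of these same libraries, so neither count is an independent check. Of all genes, 27.8% had estimates above 0 in both sexes and 29.78% below 0 in both. Over all genes, ranges did not overlap in 0.447% with uninjured BALF higher and in 0.283% with it lower. The groups that rose together were lipid genes: 25 of the 77 tested genes of 5 lipid lists rose and 1 fell, beside 39 and 8 of the 817 genes of all 54 lists. The plot of all lists shows that most calls sat in cholesterol synthesis, sterol uptake, NRF2 targets and glucocorticoid targets, and that 35 of the 52 lists with a tested member held no called gene, 24 of these also by DESeq2. The count of 138 was 49 without the 3 libraries of differing description number and 5 when libraries 1 and 2 of each group, the closest pair in the male groups, were summed to 1. Leaving out 1 library at a time gave 62 without female uninjured BALF replicate 2, 74 without male media replicate 1, 77 without male media replicate 3, 74 without male uninjured BALF replicate 2 and 76 without male uninjured BALF replicate 3.

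**Figure D1:**
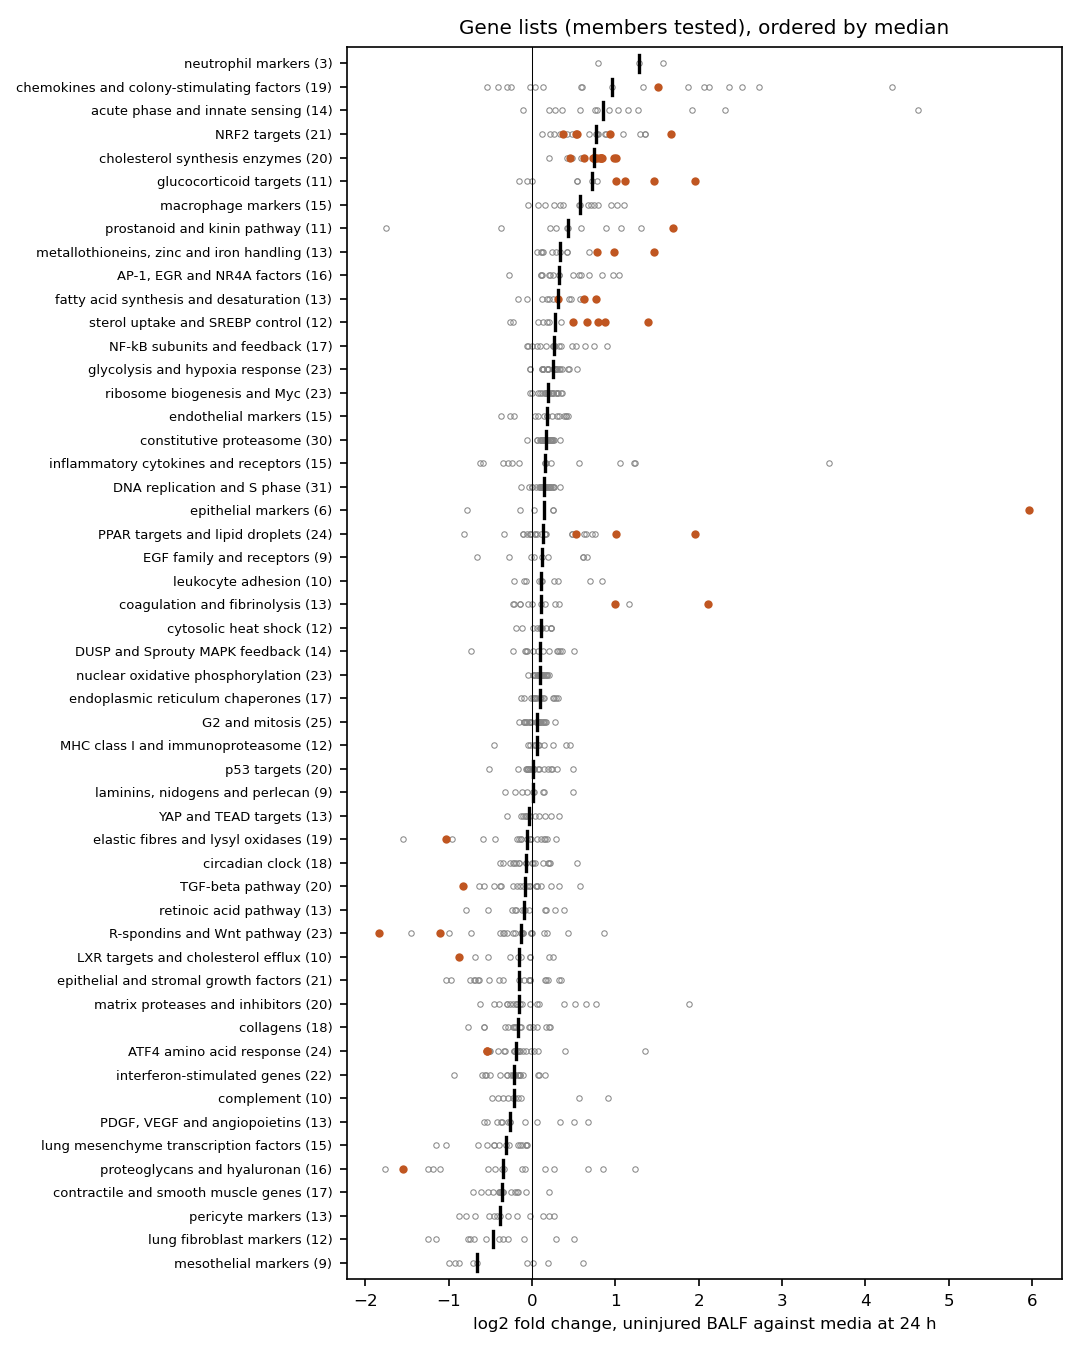
Log2 fold change of uninjured BALF against media at 24 h (x axis) for each tested member of the 52 gene lists with a tested member (y axis, number of tested members in brackets, ordered by median). Filled points passed an adjusted p of 0.05, open points did not, and black bars are list medians. Cholesterol synthesis holds 14 filled points to the right of 0 and none to the left, while contractile, pericyte and collagen genes lie mostly to the left of 0 with no filled point.

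The enzymes of cholesterol synthesis were the largest group of rising genes. Of 20 enzymes 14 rose and 0 fell, where 0.516% of all genes rose. The median log2 fold change of the 20 was 0.75, beside -0.004 for all genes. All 20 estimates lay above 0 in female and in male libraries alike, which held for 27.8% of all genes, and in 10 of the 20 the ranges of the 6 and 6 libraries did not overlap. Summed over the 20 enzymes, the level was 1133 ± 112 CPM in media and 1892 ± 220 CPM in uninjured BALF (mean ± SD, n = 6). The list was chosen with results of these samples in view, so its count is a description. Without the 3 libraries of differing description number 11 enzymes rose, leaving out any 1 of the 12 libraries left 12 to 14, and summing libraries 1 and 2 left 2.

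The pathway opens with Acat2, the thiolase that joins acetyl-CoA units, at 15.2, 27.1 and 40.2 CPM (lowest, median and highest) in media and 43.6, 49.3 and 76.8 CPM in uninjured BALF, a log2 fold change of 1.01 ± 0.16 (SE, adjusted p 0.00082). Hmgcs1, the HMG-CoA synthase of the next step, lay at 117, 139 and 167 CPM in media and 194, 263 and 280.3 CPM in uninjured BALF, with no overlap between the groups (log2 fold change 0.83 ± 0.13, adjusted p 0.00088). Both genes were higher in all 6 BALF libraries than in any media library. Of the steps from mevalonate to farnesyl diphosphate, the decarboxylase Mvd (0.82 ± 0.16, adjusted p 0.0061) and the isomerase Idi1 (0.98 ± 0.20, adjusted p 0.011) rose on the log2 scale. The kinases Mvk and Pmvk and the synthase Fdps did not pass, with log2 values of 0.46, 0.59 and 0.84 at adjusted p of 0.099, 0.26 and 0.12.

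Most of the steps committed to sterols rose. Fdft1, squalene synthase, lay at 58.8, 69.1 and 76.5 CPM in media and 91.7, 109.9 and 134 CPM in uninjured BALF (log2 fold change 0.73 ± 0.11, adjusted p 0.00053). Sqle, the epoxidase that follows, changed by 0.62 ± 0.12 and Lss, which closes the ring to lanosterol, by 0.74 ± 0.16 on the log2 scale. Cyp51, which removes a methyl group of lanosterol, rose from 119.7, 128 and 145 to 187, 236 and 256 CPM with no overlap between the groups, a log2 fold change of 0.84 ± 0.12 (adjusted p 0.00028). After it, the demethylation enzymes Msmo1, Nsdhl and Hsd17b7 rose by 0.78, 0.75 and 0.75, and the desaturase Sc5d by 0.45 at an adjusted p of 0.041. Of the late enzymes, Tm7sf2, Ebp and Dhcr7 did not pass, with log2 values of 0.48, 0.20 and 0.42. In the plot by library the male media library with the highest sum of these enzymes, replicate 3 at 1352 CPM, lies above the other media libraries for most enzymes. When 1 of the 12 libraries was left out, Sc5d kept its call only without female media replicate 1 or female uninjured BALF replicate 2 (adjusted p up to 0.1 in the other 10 cases). Lss lost its call without female media replicate 1, male media replicates 1 or 2 or male uninjured BALF replicate 3 (adjusted p up to 0.074).

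**Figure D2:**
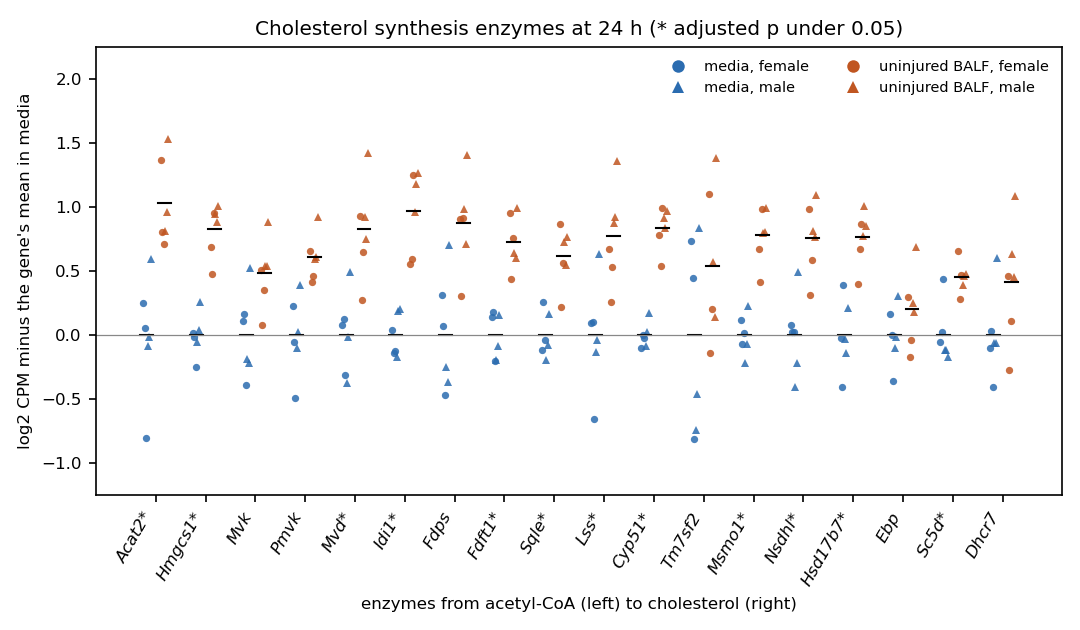
Level of 18 of the cholesterol synthesis enzymes in each of the 12 libraries, as log2 CPM minus the gene's mean in media (y axis), with enzymes in pathway order (x axis) and an asterisk at the 12 with an adjusted p under 0.05. Circles are female and triangles male libraries, blue is media, orange is uninjured BALF, and black bars are means of 6. The means of uninjured BALF lie above 0 for all 18 enzymes.

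Genes that bring sterol into the cell or control SREBP2 rose as well, 5 of 12 with 0 lower. Insig1, the sterol-dependent anchor of SREBP2 and also its target, lay at 59.0, 70.9 and 85.3 CPM in media and 102, 125 and 152 CPM in uninjured BALF (log2 fold change 0.79 ± 0.12, adjusted p 0.00071). Stard4, a soluble sterol carrier (0.88 ± 0.11, adjusted p 3e-05), and Scarb1, the HDL receptor SR-B1 (0.49 ± 0.08, adjusted p 0.0016) rose as well. In all 5 rising genes the lowest BALF library exceeded the highest media library. The SREBP1 gene Srebf1 stood at 0.20 with an adjusted p of 0.27.

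Upstream sequence was available from RefSeq (GRCm38.p6) for 15 of the 20 enzymes, as the 250 bases before the gene start. The CCAAT box, the pentamer bound by NF-Y, a factor known to act beside SREBP2, was searched as CCAAT on both strands, and the sterol response element as TCACNCCAC on both strands, where N is any base. CCAAT was found in 14 of the 15 windows (93.33%), in 40.11% of the 11132 windows of tested genes and in 37.49% of all 27025 windows of the table. TCACNCCAC was found in 1 of 15 (6.67%), Hmgcs1, and in 1.27% of tested genes and 1.22% of all. The 4 called sterol genes of lowest p that had a window are shown, with 3 CCAAT matches and the sterol element (Hmgcs1), 1 CCAAT match (Cyp51, Insig1) and neither (Acat2). Other kinds are not printed, such as 2 CCAAT matches without the sterol element (Mvd, Nsdhl) or 5 (Mvk). Capitals mark the matches, and ATTGG is CCAAT read on the other strand. All are printed 5′ to 3′ on the gene's strand, Hmgcs1 and Insig1 from the plus strand and Cyp51 and Acat2 from the minus strand.
Hmgcs1, chr13:119690101-119690350: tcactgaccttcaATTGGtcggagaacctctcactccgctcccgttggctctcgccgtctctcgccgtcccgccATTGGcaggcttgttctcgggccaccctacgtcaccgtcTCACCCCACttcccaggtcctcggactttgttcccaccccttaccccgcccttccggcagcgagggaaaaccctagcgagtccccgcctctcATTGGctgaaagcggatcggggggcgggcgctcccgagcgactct
Cyp51, chr5:4104698-4104947: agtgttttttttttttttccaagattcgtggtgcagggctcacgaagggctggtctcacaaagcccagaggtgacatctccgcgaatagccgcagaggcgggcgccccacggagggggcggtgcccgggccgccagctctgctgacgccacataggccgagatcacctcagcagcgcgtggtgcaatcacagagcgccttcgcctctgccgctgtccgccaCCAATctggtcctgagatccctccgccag
Insig1, chr5:28071162-28071411: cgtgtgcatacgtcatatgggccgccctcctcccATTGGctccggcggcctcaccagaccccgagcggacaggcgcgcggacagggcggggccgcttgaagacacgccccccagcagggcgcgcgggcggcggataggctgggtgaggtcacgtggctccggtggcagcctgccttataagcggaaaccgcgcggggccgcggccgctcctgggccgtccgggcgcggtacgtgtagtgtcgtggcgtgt
Acat2, chr17:12960726-12960975: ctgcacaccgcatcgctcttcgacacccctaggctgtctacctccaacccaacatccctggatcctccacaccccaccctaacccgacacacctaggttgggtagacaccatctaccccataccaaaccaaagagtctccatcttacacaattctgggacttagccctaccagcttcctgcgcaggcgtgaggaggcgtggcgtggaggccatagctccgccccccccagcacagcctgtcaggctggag
The CCAAT of Cyp51 begins 29 bases before the start and the sterol element of Hmgcs1 137 bases before it. Acat2, with the highest log2 fold change of the enzymes, holds neither match in this window. A match is a string of letters and shows no binding, and the share was not tested against other groups of genes.

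Of the fatty acid synthesis genes 3 of 13 rose and 0 fell, with a list median of 0.31. Acly, which makes cytosolic acetyl-CoA for both sterols and fatty acids, lay at 200.2, 253 and 284 CPM in media and 335, 370.4 and 464 CPM in uninjured BALF with no overlap (0.62 ± 0.08, adjusted p 7.9e-05). Elovl6, a fatty acid elongase, changed by 0.77 ± 0.12 (adjusted p 0.00089) and Acaca, acetyl-CoA carboxylase, by 0.31 ± 0.07 (adjusted p 0.026). The desaturase Scd1 stood at 0.47 with an adjusted p of 0.17. Acaca's call was lost without female media replicate 1, male media replicate 1, female uninjured BALF replicate 2 or male uninjured BALF replicate 3, at adjusted p of up to 0.11.

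Abca1, the exporter of cholesterol to apolipoprotein A1 and a leading LXR target, fell. It lay at 63.6, 83.9 and 101 CPM in media (chr4:53030787-53159895 on GRCm38) and at 35.7, 43.2 and 61.6 CPM in uninjured BALF, a log2 fold change of -0.88 ± 0.14 (adjusted p 0.00097). The ranges did not overlap in either sex. It was the 1 called gene among 10 LXR targets, of which 8 had estimates below 0 and 2 above 0, with a median of -0.15. Pltp, a phospholipid transfer protein, stood at -0.68 (adjusted p 0.4) and Lpcat3 at 0.25 (adjusted p 0.46).

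The rise of lowest p in the whole comparison was that of Angptl4, a secreted inhibitor of lipoprotein lipase that PPAR receptors, glucocorticoids and hypoxia are known to raise. It lay at 17.6, 30.2 and 33.5 CPM in media and 67.5, 79.2 and 214 CPM in uninjured BALF, 3.90-fold higher (log2 1.96 ± 0.19, adjusted p 1.2e-06). All 6 BALF libraries exceeded all media libraries, with female replicates 1 and 2 at 194 and 214 CPM and the other 4 at 67.5 to 83.0 CPM. Cpt1a, which admits fatty acids to mitochondria, rose by 0.52 ± 0.09 (adjusted p 0.0018) and Pdk4, which holds pyruvate out of them, by 1.01 ± 0.22 (adjusted p 0.018), both without overlap. These were 3 of 24 tested PPAR and lipid droplet genes, with 0 lower. The lipid droplet coat Plin2 did not pass (0.63, adjusted p 0.078). Pdk4's call was lost without male media replicates 1 or 3, female uninjured BALF replicate 2 or male uninjured BALF replicate 2, at adjusted p of up to 0.095.

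NRF2 targets were higher with wide scatter between BALF libraries. 5 of 21 rose and 0 fell, all 21 estimates lay above 0 in both sexes, and the list median was 0.76. Hmox1, heme oxygenase 1, was read at 199, 247 and 306 CPM in media and 392, 760.1 and 1273 CPM in uninjured BALF, 3.17-fold higher (log2 1.66 ± 0.32, adjusted p 0.0058), and the groups did not overlap. Pgd, which makes NADPH in the pentose phosphate pathway, lay at 166, 204 and 222 and 291, 349 and 580.5 CPM (0.94 ± 0.15, adjusted p 0.00071). Tkt, a transketolase of the same pathway (0.37), the glutathione conjugate pump Abcc1 (0.52) and thioredoxin Txn1 (0.54) passed at adjusted p of 0.028, 0.032 and 0.013. The classical targets Nqo1, Srxn1, Slc7a11, Gclm and Txnrd1 had log2 values of 1.36, 1.09, 1.36, 0.89 and 0.76 but adjusted p of 0.14, 0.12, 0.36, 0.17 and 0.066. Nqo1 illustrates the scatter, with 47.7, 68.2 and 83.5 CPM in media and 81.0, 131 and 483 CPM in uninjured BALF. The summed list was 4788 ± 548 CPM in media and 7791 ± 2460 CPM in uninjured BALF, where female replicate 1 alone reached 12500 CPM and the other 5 libraries 5996 to 8302 CPM. DESeq2 called 9 of the 21, and 2 passed without the 3 libraries of differing description number. Leaving out female media replicate 2, male media replicate 1, female uninjured BALF replicate 1 or male uninjured BALF replicate 3 left 3 of the 21, Abcc1 and Tkt being the calls lost. Over all 12 removals of 1 library, Abcc1 lost its call in 8 and Tkt in 5 (adjusted p up to 0.11 and 0.093).

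Metal handling genes included 3 that rose among 13, with 0 lower and all 13 estimates above 0. Mt2, a metallothionein that binds zinc and copper, lay at 18.7, 39.6 and 53.4 CPM in media and 52.6, 93.2 and 214 CPM in uninjured BALF (1.47 ± 0.26, adjusted p 0.002). The groups met at their edges, 53.4 CPM in female media replicate 3 against 52.6 CPM in female uninjured BALF replicate 3. Mt1 rose by 0.77 (adjusted p 0.032), a call lost without female media replicate 2, any of the male media libraries, female uninjured BALF replicate 1 or male uninjured BALF replicates 1 or 2 (adjusted p up to 0.1). Tfrc, the transferrin receptor that brings iron into cells, rose by 0.98 ± 0.15 (adjusted p 0.00059), from 26.0, 41.0 and 71.8 to 68.3, 83.7 and 114 CPM. The ferritin subunits Fth1 and Ftl1 stood at 0.68 and 0.33 and did not pass (adjusted p 0.13 and 0.19). The window of 250 bases before the start of Mt2 is shown because it holds 3 matches to the metal response element, searched on both strands as TGCGCNC or TGCACNC, which is found in 33.84% of tested genes' windows. Its matches, in capitals, begin 223, 128 and 50 bases before the start, and the last is read on the other strand.
Mt2, chr8:94172368-94172617, plus strand: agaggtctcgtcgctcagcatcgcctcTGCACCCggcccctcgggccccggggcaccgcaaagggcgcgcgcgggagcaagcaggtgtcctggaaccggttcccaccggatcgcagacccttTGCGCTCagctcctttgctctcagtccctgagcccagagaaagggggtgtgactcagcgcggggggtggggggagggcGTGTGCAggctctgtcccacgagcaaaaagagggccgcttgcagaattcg
Of the 24 amino acid response genes controlled by ATF4, 0 rose and 2 fell, the transcription factor Atf5 (-0.54 ± 0.11, adjusted p 0.014) and the leucine carrier Slc7a5 (-0.54 ± 0.13, adjusted p 0.049), and 20 of the 24 estimates lay below 0. Atf5 lost its call without male media replicate 3, female uninjured BALF replicate 2 or male uninjured BALF replicates 2 or 3, and Slc7a5 kept its call only without female media replicate 2, female uninjured BALF replicate 1 or male uninjured BALF replicate 1. Endoplasmic reticulum chaperones (17 genes), cytosolic heat shock genes (12) and p53 targets (20) had 0 called genes by edgeR or DESeq2. At an unadjusted p under 0.05 they had 3, 2 and 1, where 11.28% of all genes passed.

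Glucocorticoid targets held 4 rising genes of 11 tested, with 0 lower and a median of 0.72. 3 of the 4, Angptl4, Mt2 and Pdk4, also sit in lists above. The fourth was Sgk1, a serum and glucocorticoid regulated kinase, at 79.0, 162 and 283 CPM in media and 187, 350.4 and 521 CPM in uninjured BALF (1.12 ± 0.22, adjusted p 0.0075). Per1, a clock gene with a known glucocorticoid response, stood at 0.54 (adjusted p 0.09). The 18 circadian clock genes held 0 called genes by edgeR, 3 at an unadjusted p under 0.05 and 1 called by DESeq2.

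Prl2c2, a proliferin of the prolactin family, was read at 0.752, 1.97 and 2.82 CPM in media and 2.38, 11.4 and 62.7 CPM in uninjured BALF, a log2 fold change of 3.08 ± 0.52 (adjusted p 0.0012). Its near-identical neighbour Prl2c3 stood at 2.30 ± 0.48 (adjusted p 0.014). Reads of these copies can be shared between genes by the counting, so each single value is uncertain. The female BALF libraries read 62.7, 47.8 and 12.4 CPM of Prl2c2 and the male ones 2.38, 4.32 and 10.4 CPM. In female libraries all 3 BALF values exceeded all 3 media values, whereas in male libraries the lowest BALF and the highest media value were both 2.38 CPM. Prl2c2 kept its call in each removal of 1 library, and Prl2c3 lost it without male media replicate 1, female uninjured BALF replicate 2 or male uninjured BALF replicate 3 (adjusted p up to 0.085).

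Ccl2, the chemokine that draws monocytes, was the 1 called gene of 19 chemokines and colony-stimulating factors, at 25.4, 38.5 and 48.0 CPM in media and 32.9, 61.7 and 421 CPM in uninjured BALF (1.51 ± 0.37, adjusted p 0.043). Female BALF replicates 1 and 2 read 157 and 420.8 CPM, and the other 4 BALF libraries 32.9 to 72.2 CPM, of which 2 lay inside the media range and 2 above it. Without female BALF replicate 2 the log2 fold change was 0.96 (adjusted p 0.28), and the call was kept only without female media replicate 3, female uninjured BALF replicate 1 or female uninjured BALF replicate 3. Ccl20, Cxcl3 and Ccl9 stood at 2.52, 4.33 and 0.96 with adjusted p of 0.11, 0.15 and 0.096. The list median was 0.96, with 14 of 19 estimates above 0. Of the 19, 10 had an unadjusted p under 0.05, where 11.28% of all genes had, and DESeq2 called 4 higher and 0 lower. Cytokines and their receptors (15 tested), NF-kB subunits and feedback genes (17), acute phase genes (14), leukocyte adhesion molecules (10) and interferon-stimulated genes (22) held 0 called genes by edgeR. They held 5, 6, 5, 1 and 1 at an unadjusted p under 0.05, which 11.28% of all genes had, and DESeq2 called 1, 1, 3, 0 and 0. Saa3, an acute phase protein, came nearest at 2.31 (adjusted p 0.056), and Il6 stood at 1.23 (adjusted p 0.18).

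Bdkrb1, the inducible kinin B1 receptor, rose by 1.69 ± 0.33 (adjusted p 0.008) from 0.174, 0.771 and 1.30 to 1.16, 2.0 and 5.58 CPM, the 1 called gene of 11 in the prostanoid and kinin list. Ptgs2os2, a transcript on the opposite strand near the cyclooxygenase gene Ptgs2, rose by 1.08 (adjusted p 0.022), and since the counting is not stated to use strand, its reads and those of overlapping genes cannot be told apart. Serpinb2, the plasminogen activator inhibitor PAI-2, and Tfpi2, a protease inhibitor of the tissue factor pathway family, were the 2 called genes of 13 in coagulation and fibrinolysis, at 2.12 and 0.99 (adjusted p 0.044 and 0.039). Serpinb2 read 27.0 CPM in female BALF replicate 2 and 2.17 to 10.6 CPM in the other 5, and without that library its log2 fold change was 1.21 (adjusted p 0.36). The call of Serpinb2 was kept only without female media replicate 2, male uninjured BALF replicate 1 or female uninjured BALF replicates 1 or 3, and that of Tfpi2 only without female media replicate 1 or female uninjured BALF replicates 1 or 3. Ptgs2os2 lost its call without male media replicates 1 or 3 or replicate 2 of either BALF group. The remaining named rises were Olr1, a receptor for oxidized LDL (1.59, adjusted p 0.038), the receptor partner Ramp3 (1.49, adjusted p 0.047), the basophil protease gene Mcpt8 (1.38, adjusted p 0.032) and Gbe1, the glycogen branching enzyme (1.14, adjusted p 0.0061). Of these 4, Gbe1 kept its call in each of the 12 removals. Olr1 lost it without female media replicates 2 or 3, male media replicates 1 or 3, or replicate 2 of either BALF group. Ramp3 kept it only without female uninjured BALF replicate 3 or male uninjured BALF replicate 1. Mcpt8 lost it without female media replicates 1 or 3, any male media library, female uninjured BALF replicate 2 or male uninjured BALF replicate 3.

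**Figure D3:**
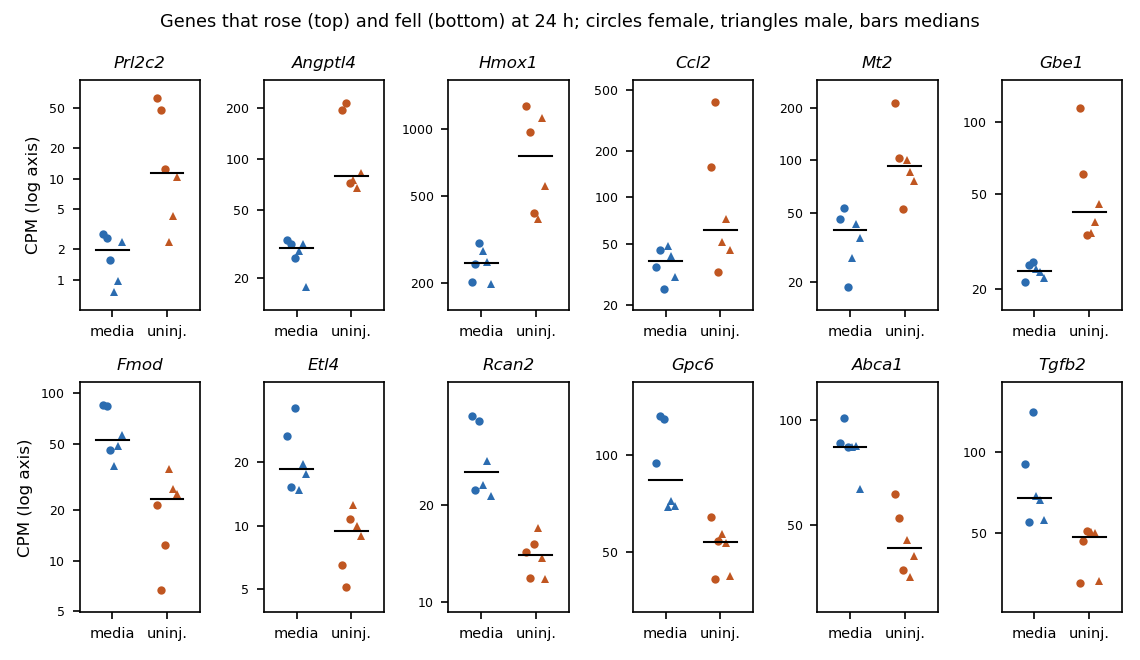
CPM on a logarithmic y axis for 12 of the genes named in the text, 6 that rose (top) and 6 that fell (bottom), in media and uninjured BALF (x axis) at 24 h. Circles are female and triangles male libraries, and bars are medians of 6. Gbe1, Angptl4 and Hmox1 do not overlap between the groups and neither do the 6 falling genes, whereas 4 of the 6 BALF libraries of Ccl2 lie between 32.9 and 72.2 CPM, close to the media libraries.

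Fmod, fibromodulin, a small leucine-rich proteoglycan of collagen fibrils, lay at 36.5, 52.3 and 85.2 CPM in media and 6.69, 23.2 and 35.0 CPM in uninjured BALF, a log2 fold change of -1.55 ± 0.34 (adjusted p 0.024). Mfap4, a microfibril protein of elastic fibres, fell by 1.03 on the log2 scale (adjusted p 0.047). Itga1, the integrin chain that binds collagen and laminin, lay at 86.7, 117 and 132 CPM in media and 43.3, 57.7 and 89.9 CPM in uninjured BALF (-0.92 ± 0.19, adjusted p 0.012), and Gpc6, a glypican of the cell surface, at 69.2, 83.6 and 133 and 41.3, 53.9 and 64.3 CPM (-0.81 ± 0.13, adjusted p 0.00088). Fmod and Gpc6 were lower in all 6 BALF libraries than in any media library, and Itga1 was lower in all BALF libraries within each sex. The matrix lists as a whole held 0 rising and 2 falling genes among 99 tested. Of the 16 proteoglycan and hyaluronan genes, where Fmod was the 1 called, 9 had an unadjusted p under 0.05, beside 11.28% of all genes. Of these 16 estimates 11 lay below 0 and 5 above, with a median of -0.35. Of 18 collagen genes 0 were called by edgeR or DESeq2 and 13 estimates lay below 0. An unadjusted p under 0.05 was found for 2 of them and for 11.28% of all genes. Col6a3 stood at -0.57 (adjusted p 0.19). Elastin, Eln, stood at -1.55 with an adjusted p of 0.37. Fmod lost its call without male media replicates 1 or 3, female uninjured BALF replicate 2 or male uninjured BALF replicates 2 or 3 (adjusted p 0.052 to 0.095), and Mfap4 kept it only without female media replicate 3, male media replicate 2, female uninjured BALF replicate 3 or male uninjured BALF replicate 1.

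In the Wnt list 2 of 23 genes fell and 0 rose. Wnt4, a Wnt ligand, was read at 0.795, 5.71 and 9.18 CPM in media and 0.629, 0.887 and 3.27 CPM in uninjured BALF (-1.83 ± 0.41, adjusted p 0.026), a low and scattered level. Without female media replicate 2, which held 9.18 CPM where the other female media libraries held 0.795 and 1.86 CPM, its log2 fold change was -1.02 (adjusted p 0.15), and the call was also lost without male media replicates 1 or 2, female uninjured BALF replicates 1 or 2 or male uninjured BALF replicate 3. Nkd1, a feedback inhibitor of Wnt signalling, lay at 9.85, 12.2 and 15.5 and 3.24, 4.64 and 10.1 CPM (-1.10 ± 0.22, adjusted p 0.011). Tgfb2, a TGF-beta ligand, was the 1 called gene of 20 in its list, at 54.8, 67.6 and 142 and 32.5, 48.4 and 50.7 CPM (-0.83 ± 0.19, adjusted p 0.033). The groups did not overlap, the highest media value, 142 CPM, was that of female media replicate 1, and the call was kept only without female media replicates 2 or 3, female uninjured BALF replicate 3 or male uninjured BALF replicate 1 (adjusted p up to 0.13 otherwise).

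Further falls were those of Etl4, Rcan2, Rab3b, Adamtsl1, Hspb6, Mtss1l, Tenm4 and Cdh3. Etl4 lay at 14.8, 18.6 and 36.2 CPM in media and 5.12, 9.39 and 12.5 CPM in uninjured BALF (-1.27 ± 0.20, adjusted p 0.00089). Rcan2, a calcineurin regulator, lay at 21.3, 25.3 and 37.7 and 11.8, 14.0 and 16.9 CPM (-0.99 ± 0.17, adjusted p 0.0023). Both were lower in all 6 BALF libraries. Rab3b, a small GTPase of vesicle release (-1.02), and Adamtsl1, a matrix glycoprotein (-1.0), were also lower without overlap. Hspb6, a small heat shock protein of smooth muscle (-0.92), Mtss1l (-0.79), the teneurin Tenm4 (-1.45) and P-cadherin, Cdh3 (-1.10), overlapped between the groups. Tenm4 kept its call only without female media replicate 1, male media replicate 2 or female uninjured BALF replicate 1, and Cdh3 only without female media replicate 2, male media replicate 3, female uninjured BALF replicate 3 or male uninjured BALF replicate 1.

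The contractile and pericyte lists held no called gene. Of 17 contractile and smooth muscle genes 0 were called by edgeR or DESeq2, 16 estimates lay below 0 and the median was -0.36, with 5 at an unadjusted p under 0.05. Acta2, smooth muscle actin, lay at 5328, 8526 and 9650 CPM in media and 3130, 6820 and 8454 CPM in uninjured BALF (-0.35 ± 0.18, adjusted p 0.47). Tagln, transgelin, stood at -0.17 (adjusted p 0.7), and Mylk, the myosin light chain kinase, at -0.62 (adjusted p 0.16). Of 13 tested pericyte markers 0 were called by either tool, 10 estimates were below 0 and 4 had an unadjusted p under 0.05. Notch3, a receptor that mural cells need, stood at -0.68 (adjusted p 0.21), Cspg4, the NG2 proteoglycan, at -0.18 (adjusted p 0.91), and Rgs5, a marker of vessel-wrapping pericytes, was read at 3.14, 8.16 and 24.4 CPM in media and 3.27, 4.84 and 10.0 CPM in uninjured BALF. For 7 of the 13 markers the estimate was below 0 in both sexes, and for 1 above 0 in both. DNA replication genes (31), mitosis genes (25), ribosome biogenesis genes (23) and constitutive proteasome subunits (30) held 0 called genes by either tool. They had 0, 0, 8 and 10 at an unadjusted p under 0.05 and list medians of 0.15, 0.06, 0.19 and 0.17. Over all genes 11.28% had an unadjusted p under 0.05, and 49.02% of estimates lay above 0.

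Markers of other cells were summed in the same way. Summed macrophage markers lay at 43.8 ± 24.9 CPM in media and 66.2 ± 28.8 CPM in uninjured BALF (exact permutation p 0.18, adjusted 0.57). Of 15 tested members 14 had estimates above 0, where 49.02% of all genes had. Of the 15, 0 were called by edgeR and 1 by DESeq2, and 2 had an unadjusted p under 0.05, where 11.28% of all genes had. Neutrophil markers summed to 1.13 ± 0.614 and 2.85 ± 1.67 CPM (exact permutation p 0.065, adjusted 0.39), with S100a9, Ly6g and Retnlg at 0 in all 12 libraries. The 3 tested neutrophil markers all had estimates above 0 in both sexes, with a median log2 fold change of 1.29. Of these 3, 0 were called by edgeR and 1 by DESeq2, and 1 had an unadjusted p under 0.05. Lymphocyte and erythroid markers had no member above the filter on low counts. Endothelial markers summed to 145 ± 68.2 and 145 ± 45.2 CPM. Of 15 tested endothelial markers 12 had estimates above 0, 0 were called by edgeR or DESeq2, and 0 had an unadjusted p under 0.05. Mesothelial markers summed to 54.9 ± 29.55 and 45.2 ± 21.9 CPM (exact permutation p 0.51, adjusted 0.676). The part of these cells in Ccl2, Mcpt8 or Olr1 was not tested.

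Scgb1a1 and Bpifa1, transcripts of airway epithelium, were read in uninjured BALF libraries and had 0 counts in media, while the summed epithelial markers did not pass the test. The 15 markers summed to 10.4 ± 3.82 CPM in media and 11.9 ± 3.80 CPM in uninjured BALF (exact permutation p 0.465, adjusted 0.676). Of the 6 above the filter on low counts 4 had estimates above 0 and 2 below, the lowest being Ager, of alveolar type 1 cells, at -0.78 (adjusted p 0.31). Scgb1a1, the secretoglobin of club cells (chr19:9083636-9087958), had 0 counts in all 6 media libraries at 24 h and 57 counts over the 6 uninjured BALF libraries, of which 5 held some, at least 17.4-fold over the limit of 3 counts that a count of 0 allows over the media group. With no count in media it could pass the filter only through BALF libraries. Its call is counted among the 138 genes, the 82 higher and the 39 rising list genes, but lends no support here. Bpifa1, a secreted protein of nasal and upper airway epithelium (chr2:154142880-154149219), falls outside the rule for naming genes and was picked after its values were seen. Bpifa1 is counted among the 138 as well, having passed the filter in the same way. It had 0 counts in the 12 media libraries of both times and 312 counts over the 6 uninjured BALF libraries at 24 h, with 2, 53 and 94 as the lowest, median and highest, at least 95.3-fold over the media limit. At 6 h uninjured BALF held 43 counts of Bpifa1 and 4 of Scgb1a1. The surfactant genes Sftpb and Sftpd and Napsa were at 0 in all 12 libraries, and Epcam, Cdh1 and Nkx2-1 were below the filter on low counts. Limits of this kind cover counting error only, and whether the transcripts were made by the cultured cells or arrived with the fluid was not tested.

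Effects were estimated as larger in female than in male libraries for most genes, with no difference that passed the test. Tested within a sex, 248 genes (1.56%) were called in female and 8 (0.0503%) in male libraries. These counts do not rank the sexes, since male libraries of the same replicate number deviated together (r of 0.317, 0.466 and 0.554 across genes) and a replicate block in a fit of the 6 male libraries alone, chosen after seeing the data, called 289 of 14401 genes (2.01%), 186 higher (1.29%) and 103 lower. That fit called 20 of the 20 cholesterol enzymes and 13 of the 21 NRF2 targets higher. It kept 48 of 65 called genes, the 64 named by the rule and Bpifa1, of which 64 had a value in it. Since the block was picked for the correlation seen in these libraries, these counts are a description and lend no support. With a replicate block within sex, the 12 libraries alone kept 2 of the 65. The test of the difference, male minus female, called 0 genes (0%), with 734 at an unadjusted p under 0.05 and 0 by DESeq2. Acly, Angptl4, Cyp51, Fdft1 and Nsdhl were among the 8 genes called in male libraries. The female estimate was the larger in 73.6% of all genes, in 79.3% of the 82 called higher and in 98.2% of the 56 called lower. For the 20 cholesterol enzymes it was the larger in 2 (10%), with medians of 0.65 in female and 0.86 in male libraries, and 7 of them were called in female libraries (0.811% of all genes were called higher there) and 5 in male libraries. For the 21 NRF2 targets it was the larger in 18 (85.7%), with medians of 0.92 and 0.42. The estimate of Fmod was -2.40 in female and -0.70 in male libraries, and that of Ccl2 2.52 and 0.50, whereas Hmgcs1 had 0.80 and 0.86 and Abca1 -0.84 and -0.92. None of these differences passed the test between the sexes, and the spread was larger in female groups, where pairs of libraries had a biological coefficient of variation of 15.6 to 40.0% against 8.14 to 20.4% in male groups.

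The effect at 24 h was set against that of the same fluid at 6 h, which shares no library with it. At 6 h 2923 genes (18.4%) were called, 10.6% higher and 7.82% lower, and 73 of the 138 genes called at 24 h were among them, 70 in the same direction and 3 (Tfrc, Idh1 and Slc7a8) in the opposite one. The test of the difference, 24 h minus 6 h, called 312 genes (1.96%), 110 with a higher and 202 with a lower effect at 24 h, a split that was 151 and 154 with upper-quartile scaling. The count of 312 fell to 182 without female uninjured BALF 24 h replicate 3, 194 without male uninjured BALF 24 h replicate 3, 198 and 201 without male media 24 h replicates 1 and 2, and 194, 206 and 207 without male media replicate 3 and replicate 1 of either uninjured BALF group at 6 h. Cholesterol synthesis belonged to the late side: 12 of the 20 enzymes had a higher effect at 24 h and 0 a lower one, where 0.692% of all genes were higher. At 6 h the median of the 20 was -0.06 and 1, Pmvk, was called (1.35 ± 0.22, adjusted p 8.9e-05). Acat2 was the most different enzyme, with -0.33 ± 0.16 at 6 h (adjusted p 0.16) and a difference of 1.34 ± 0.23 (adjusted p 0.0013). Insig1 and Stard4 differed by 1.08 ± 0.17 and 0.97 ± 0.15 (adjusted p 0.0009 and 0.0008), Tfrc by 1.43 ± 0.21 (adjusted p 0.00065). Abca1 did not differ by the test (-0.43 ± 0.20, adjusted p 0.3), and neither did Acly (0.32 ± 0.11, adjusted p 0.15) or Angptl4 (-0.66 ± 0.27, adjusted p 0.21).

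NRF2 targets, like all genes together, had more calls at 6 h than at 24 h. At 6 h 17 of the 21 were called higher with a median of 1.14, where 10.6% of all genes were called higher against 0.516% at 24 h. Of the 21, 4 had a lower effect at 24 h than at 6 h and 0 a higher one, where 1.27% of all genes were lower. Hmox1 lay at 372, 459 and 540.0 CPM in media and 4617, 5401 and 6466 CPM in uninjured BALF at 6 h (3.55 ± 0.34, adjusted p 7.1e-08) and the difference, 24 h minus 6 h, was -1.89 ± 0.44 (adjusted p 0.021). Srxn1, sulfiredoxin, differed by -1.90, Osgin1 by -1.88 and Gsr, glutathione reductase, by -0.87 (adjusted p 0.022, 0.013 and 0.018). Pgd, Mt2 and Sgk1 had effects of 1.14, 1.45 and 1.13 at 6 h and differences of -0.20, 0.02 and -0.01, none of them called (adjusted p 0.71, 0.99 and 0.99).

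**Figure D4:**
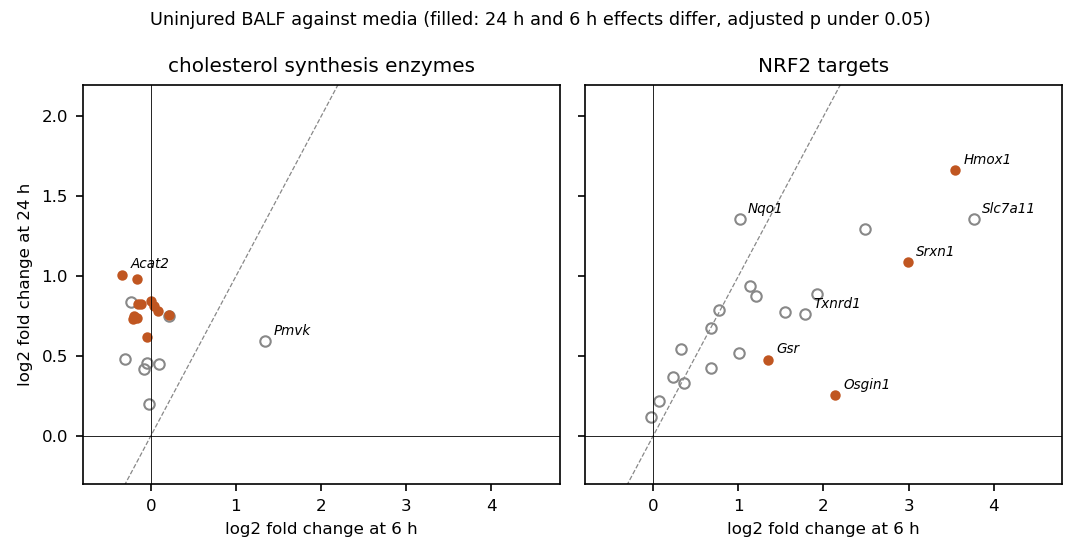
Log2 fold change of uninjured BALF against media at 6 h (x axis) and at 24 h (y axis) for the 20 cholesterol synthesis enzymes (left) and the 21 NRF2 targets (right). Filled points have different effects at the 2 times (adjusted p under 0.05) and the dashed line marks equal effects. 19 of the 20 enzymes lie above the line, and most NRF2 targets lie below it.

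Among genes of at least 2 average log2 CPM with a called time difference, the 5 largest in each direction by the naming rule lay outside these 2 lists. Nr4a3, an immediate early nuclear receptor, rose at 6 h (3.58 ± 0.52, adjusted p 1.8e-05) and stood at 0.11 at 24 h (adjusted p 0.97), a difference of -3.48 ± 0.71 (adjusted p 0.0086). Nmnat2, an NAD-making enzyme, the cytokine Il11, the protein C receptor Procr and Pi15 had smaller effects at 24 h, with differences of -2.64, -2.50, -2.10 and -1.97 on the log2 scale (adjusted p 0.00065, 0.017, 0.029 and 0.018). Rarb, a retinoic acid receptor, fell at 6 h, when it lay at 4.57, 8.29 and 11.3 CPM in media and 0.627, 1.63 and 2.37 CPM in uninjured BALF, and at 24 h lay at 4.12, 10.4 and 13.3 and 8.32, 10.6 and 17.6 CPM, a difference of 2.87 ± 0.44 (adjusted p 0.0008). Dhrs3, which turns retinal back to retinol, Rgs4, Ahrr and Tppp also had lower values at 6 h and effects of -0.24, -0.08, 0.82 and -0.48 at 24 h, none called (differences 1.88, 2.30, 2.08 and 1.88, adjusted p 0.02, 0.015, 0.037 and 0.023). Of these 10 genes Nr4a3, Nmnat2, Il11, Pi15, Rarb, Rgs4 and Dhrs3 kept their call in each of 24 removals of 1 library at 6 h or 24 h, while Ahrr lost it in 14 and Procr in 8 (adjusted p up to 0.086 and 0.063), and Tppp without male media 6 h replicate 3, male media 24 h replicate 1 or female uninjured BALF 24 h replicate 3. Of the 13 tested retinoic acid genes 0 were called at 24 h by edgeR or DESeq2, and 0 had an unadjusted p under 0.05.

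Injured BALF at 24 h is set beside these values, with its own tests. Its comparison with media uses the same media libraries and its comparison with uninjured BALF the same BALF libraries, so the results are not independent of those above. Against media it called 3774 genes (23.7%), and against uninjured BALF 703 (4.42%). Angptl4 had medians of 30.2, 79.2 and 418 CPM in media, uninjured and injured BALF, Prl2c2 of 1.97, 11.4 and 111 CPM, and Ccl2 of 38.5, 61.7 and 907 CPM. Injured exceeded uninjured BALF in all 3 (log2 1.91, 2.48 and 3.07, adjusted p 3.8e-07, 0.0013 and 1.5e-05). The falling genes Gpc6 and Itga1 had the same order downward, Gpc6 with medians of 83.6, 53.9 and 31.8 CPM and Itga1 with 117, 57.7 and 29.7 CPM (injured against uninjured -0.61 and -0.98, adjusted p 0.0044 and 0.0019). Hmgcs1 and Cyp51 did not follow this order. Hmgcs1 had medians of 139, 263 and 188 CPM and Cyp51 of 128, 236 and 194 CPM, with injured between the other 2 groups. Injured against uninjured BALF stood at -0.41 and -0.32 (adjusted p 0.069 and 0.15), which did not pass. Of the 20 enzymes 11 rose in injured BALF against media with a median of 0.41, where 11.5% of all genes rose, and 1, Mvk, was lower in injured than in uninjured BALF (-0.59, adjusted p 0.0062), where 2.04% of all genes were lower.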

How the data were processed

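RNA-seq counts per gene were taken as the authors deposited them, 1 table of whole numbers for 36 libraries. Per the labels' protocols, RNeasy was used for RNA and the strand-specific TruSeq mRNA kit for libraries. The submitters' processing notes name STAR 2.5.2b, RSEM 1.2.31, DESeq2 and GRCm38 without their roles, so the deposited counts may be rounded estimates that share reads between similar genes. Gene symbols and positions came from GENCODE M21 (GRCm38), which matched 99.26% of the IDs, and unmatched IDs held at most 0.0108% of counts.

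Libraries were grouped by treatment, time and the sex letter of their labels. Genes were kept with edgeR's filterByExpr (15901), scaled by TMM (factors 0.874 to 1.092 in the 12 libraries compared) and fitted with the quasi-likelihood test of edgeR 4.0.16 in R 4.3.3, with all 36 libraries in 12 groups and 24 residual degrees of freedom, so that the 24 libraries outside the comparison help to estimate the spread. The effect is the mean of the female and male log2 fold changes, its SE is its size divided by the square root of F, and p-values were adjusted by Benjamini-Hochberg over all genes. The biological coefficient of variation was 22.4%. CPM values use the scaled library total. The fold that can be seen was checked on simulated data drawn for this comparison with 15901 genes. Of 50 genes changed 1.5-fold edgeR recovered 30, of 50 changed 2-fold 41, and at 4-fold and 8-fold all 50 each, with 12 false calls. DESeq2 recovered 33, 43, 50 and 50, with 28 false calls. The changed genes left out those of low level in media. Libraries were drawn independently around a shared mean, without differences between sexes or replicate numbers. Recovery in the real libraries may therefore be lower.

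Genes named in the text are the 15 largest rises and 15 largest falls that were called, agreed in direction between the sexes and averaged at least 2 in log2 CPM, the 4 members of lowest p of each list, all members of 5 lists, Pdgfrb, and the 5 largest time differences in each direction, leaving out genes without a symbol or with a predicted name. The comparison, its gene lists and these rules were chosen with earlier results of these data known. Alternatives tried were other scalings, other filters, DESeq2 1.42.0, stricter thresholds, terms or removals for single libraries, replicate numbers and description numbers, and fits by sex. Same-numbered BALF and media libraries had correlated deviations in male (0.317 to 0.554) but not in female libraries (-0.489 to 0.068), so the numbers were not taken to pair them. Promoter windows are RefSeq's for GRCm38.p6, of which the 250 bases before the start were searched. A few genes of the lists are counted in them but not reported here by name or value.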

Additional observations from a re-analysis of the deposited data

Results flagged for a closer look

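In 14 of 156 groups of 6 values (8.97%) 1 library lay far from the other 5 by Dixon's criterion. For independent, normally distributed values it flags about 1 of 20 groups. These groups share the same libraries and come mostly from called genes, so the 8.97% is a description and no test against that share. Of the 14, 6 were values of female media replicate 1, 4 and 3 were values of replicates 1 and 2 of female uninjured BALF, and 1 was a value of male media replicate 3.

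Female media replicate 1 read 2618 CPM of summed pericyte markers (the other 5 media libraries 1374 to 1683), 956.4 CPM of summed lung mesenchyme transcription factors (556.8 to 607.1), 85.8 CPM of Mtss1l (42.5 to 57.7), 99.6 CPM of Sc5d (65.4 to 74.9) and 5.29 CPM of Tfpi2 (2.24 to 3.25). Its mitochondrial share was 3.87% (1.4 to 1.82% in the others). Mtss1l kept its call without this library.

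Female uninjured BALF replicate 1 read 12500 CPM of summed NRF2 targets (the other 5 BALF libraries 5996 to 8302), 214 CPM of Mt2 (52.6 to 102.9) and 114.7 CPM of Gbe1 (33.7 to 60.7), with a mitochondrial share of 1.92% (1.35 to 1.56%). Female uninjured BALF replicate 2 read 420.8 CPM of Ccl2 (32.9 to 157), 27.0 CPM of Serpinb2 (2.17 to 10.6) and 29.5 CPM of Ptgs2os2 (11.4 to 16.3). Male media replicate 3 read 1352 CPM of summed cholesterol enzymes (1039 to 1127), below the lowest BALF library at 1535 CPM.

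Of the 312 genes whose effect of uninjured BALF differed between 24 h and 6 h by the test of the difference, the 5 largest in each direction by the naming rule are given here. On the log2 scale the effect was lower at 24 h for Nr4a3 (-3.48), Nmnat2 (-2.64), Il11 (-2.50), Procr (-2.10) and Pi15 (-1.97), and higher for Rarb (2.87), Rgs4 (2.30), Ahrr (2.08), Dhrs3 (1.88) and Tppp (1.88).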

How the results depend on the processing

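The 138 genes changed at 24 h became 62 to 182 when 1 library was left out, 49 without the 3 libraries of differing description number (37 higher, 12 lower), 39 when female media replicate 1 was left out as well (chosen after seeing the data), 5, 0 and 502 without replicate 1, 2 or 3 in all groups, and 5 with libraries 1 and 2 summed. They were 248 in female and 8 in male libraries, 19 with the 12 libraries alone and sex as block, 285 with DESeq2, 50 at an adjusted p under 0.01 and 41 when a 2-fold change was also asked for. With a replicate block the count was 240 in the fit of 36 libraries, 2 in the 12 libraries alone within sex and 289 in the 6 male libraries alone (chosen after seeing the data), where each library correlated best with its own number, and where Crabp1, not called at -0.79, was called at 0.58. Female libraries did not correlate best with their own number. The 0 differences between the sexes became 60 without replicate 3 in all groups. The 312 differences between 24 h and 6 h became 182 to 461 with 1 library left out, 183 without a filter, 541 with the replicate block, 132 without the libraries of differing description number, 1 and 7 without replicate 1 or 2 in all groups, 3 with libraries 1 and 2 summed, 621 with DESeq2 and 80 at an adjusted p under 0.01. The cause of these moves was not tested. The 138 stayed within 1.5 times under RLE (135) or upper-quartile scaling (132), other filters (142 and 135), a term for the description number (176) and sex ignored (125). DESeq2 called 135 of the 138, and no called named gene changed direction in any alternative. Depth was 19709427 counts or more per library, and its effect on the calls was not tested.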
